A study of Mus musculus with 64 samples.

Results

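The Schlafen genes Slfn1, Slfn2, Slfn4, Slfn5 and Slfn8 and the lymphocyte antigen 6 genes Ly6a, Ly6c2, Ly6e and Ly6i were described in bone marrow-derived macrophages (BMMs) with and without the aryl hydrocarbon receptor (AhR). They are found in the count files by gene symbol, make up 9 of the 55487 genes there, and were chosen with earlier results of these data known. All 9 were among the 14537 genes that passed the filter on low counts, and none had 0 counts in any library. RNA-seq libraries were made from BMMs of female Ahr+/+ C57BL/6JRj mice and of Ahr-/- mice backcrossed to that strain, 4 mice of each genotype, used at 8 to 12 weeks of age. Bone marrow was grown into macrophages with culture supernatant rich in macrophage colony-stimulating factor. BMMs were kept for 6 h with 1 µM of the polycyclic hydrocarbon benzo[a]pyrene (BaP), with 10 µM of the plant compound indole-3-carbinol (I3C), or with the vehicle DMSO at 0.01%. They were then activated for 3 h or 20 h with 10000000 heat-killed Salmonella Enteritidis (hk S.E.) per ml, a source of many microbial patterns. A further group of each genotype and time point received DMSO and no hk S.E. and is called unactivated. Every culture thus had DMSO as vehicle, and the Ahr-/- cells lacked the receptor from the germline on, not in macrophages alone. This gave 16 groups of 4 libraries, 64 in all.

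Schlafen genes encode a family that restrains growth and virus replication and binds RNA, and in mice they lie in 1 cluster on chromosome 11. Several of them are known to be induced by type I interferon, the signal that macrophages release after contact with bacterial patterns and that acts back on them through the receptor chains Ifnar1 and Ifnar2 and factors that include Stat2 and Irf9. Ly6 genes encode small proteins that are held in the cell membrane by a lipid anchor, and several serve as surface markers of blood cells. Ly6a encodes Sca-1, which marks blood stem cells and rises with interferon, Ly6c2 encodes a part of the Ly6C antigen of inflammatory monocytes, and Ly6e is an interferon-induced gene that acts in virus entry.

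In the GENCODE M21 annotation on GRCm38 the 5 Schlafen members lie between positions 82951349 and 83190216 of chromosome 11. Slfn8 is on the minus strand and the other 4 are on the plus strand. The 4 Ly6 members lie between positions 74955051 and 75111970 of chromosome 15, with Ly6e on the plus strand and the others on the minus strand. Paralogs can share reads. Of all stretches of their transcripts as long as a single read, 0.853% in Slfn8 also occurred in another gene, mostly the pseudogene Slfn10-ps, and 2.67% in Ly6c2 also occurred in Ly6c1. The other 7 members shared 0 such stretches with any other gene.

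The promoters of 4 Schlafen genes are shown because they fall into the 2 response patterns described below. They were thus picked by response, so they cannot show whether the core marked below goes with a pattern. Slfn2 and Slfn3, not shown, had no core in this window. In activated Ahr+/+ BMMs after DMSO both were higher at 3 h than at 20 h, like Slfn5 and Slfn8. Each runs from 250 bases before to 50 bases after a RefSeq start site of GRCm38.p6, 5′ to 3′ on the strand of the gene. Slfn5 is at chr11:82951852-82952151 on the plus strand, Slfn8 at chr11:83020761-83021060 on the minus strand, Slfn1 at chr11:83116570-83116869 on the plus strand and Slfn4 at chr11:83174936-83175235 on the plus strand. Capitals mark the core of the interferon-stimulated response element, GAAANNGAAA on either strand.
Slfn5: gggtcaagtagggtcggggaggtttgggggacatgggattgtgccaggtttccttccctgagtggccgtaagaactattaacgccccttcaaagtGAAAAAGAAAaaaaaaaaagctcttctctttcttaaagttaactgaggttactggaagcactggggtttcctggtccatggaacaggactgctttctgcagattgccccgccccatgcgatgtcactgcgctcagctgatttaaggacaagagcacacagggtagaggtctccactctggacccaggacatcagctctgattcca
Slfn8: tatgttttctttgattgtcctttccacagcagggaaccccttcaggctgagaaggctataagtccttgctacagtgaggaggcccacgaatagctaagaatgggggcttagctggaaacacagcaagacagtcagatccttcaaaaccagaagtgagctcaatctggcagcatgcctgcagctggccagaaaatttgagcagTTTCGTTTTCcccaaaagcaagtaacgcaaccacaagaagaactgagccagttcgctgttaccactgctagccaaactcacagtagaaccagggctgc
Slfn1: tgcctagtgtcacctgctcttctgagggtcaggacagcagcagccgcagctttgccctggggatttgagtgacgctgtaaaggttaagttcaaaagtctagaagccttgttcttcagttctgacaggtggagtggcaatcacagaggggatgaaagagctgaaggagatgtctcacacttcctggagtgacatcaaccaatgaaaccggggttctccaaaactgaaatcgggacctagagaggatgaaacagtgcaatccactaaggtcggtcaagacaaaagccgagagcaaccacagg
Slfn4: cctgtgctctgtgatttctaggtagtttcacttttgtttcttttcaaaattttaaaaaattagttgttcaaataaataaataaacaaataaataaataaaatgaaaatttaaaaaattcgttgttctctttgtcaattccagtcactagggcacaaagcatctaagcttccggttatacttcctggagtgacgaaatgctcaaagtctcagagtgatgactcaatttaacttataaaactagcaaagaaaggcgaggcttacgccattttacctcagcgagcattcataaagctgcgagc
The core began 155 bases before the start in Slfn5, where it read GAAAAAGAAA, and 48 bases before it in Slfn8, where it read TTTCGTTTTC on the strand shown. For another RefSeq start of Slfn8, not shown, the same core began 136 bases before the start. The core was found in 1131 of 32851 promoters in the table (3.44%). RefSeq promoters were given for 6 of the 9 members, and the core was in 2 of these 6, Slfn5 and Slfn8, and not in those of Slfn1, Slfn2, Slfn4 and Ly6c2. Promoters of Ly6a, Ly6e and Ly6i were not used. Neither the core of the gamma-activated site, TTCNNNGAA (8.3% of all promoters), nor that of the AhR response element, GCGTG (32.4%), was in any of the 6. A match of letters is a description of this window and no proof of binding, and the lack of one says nothing of the rest of the locus.

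Depth, as counts on genes, ran from 12152496 to 233047331 per library (median 24499165), and the second deepest library held 50644601. The summed level of 6 macrophage markers lay between 16236 and 32073 CPM (counts per 1000000 after TMM scaling), while the summed markers of T cells, B cells, NK cells, dendritic cells, fibroblasts, mast cells and erythroid cells stayed at or below 8.35 CPM for each list. Neutrophil markers, which are given with the activation results, summed to between 10.2 and 246 CPM. Ahr counts did not fall in the knockout libraries. In activated BMMs at 20 h they were between 21.3 and 28.1 CPM in Ahr-/- and between 11.9 and 14.9 CPM in Ahr+/+ BMMs, a count over all exons that does not check the deletion. Ahrr, a target of AhR, did follow the labels, with 0.626 to 0.810 CPM in the knockout and 4.58 to 6.16 CPM in Ahr+/+ libraries. The methods give 4 mice per genotype, but no label ties a replicate number to a mouse, so p-values below measure the spread between these libraries. In such bulk samples, fewer cells that express a gene and less RNA of it per cell cannot be told apart.

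Before activation the 9 genes differed widely in level. Levels between genes are given as FPKM (CPM per kilobase of exon), as group mean ± SD over 4 libraries. In unactivated Ahr+/+ BMMs at 3 h, Slfn2, a gene required for T cell quiescence, was at 195 ± 18.9 FPKM and Ly6e at 180.0 ± 21.4 FPKM, and the ranges of these first 2 overlapped. Slfn5 followed at 32.7 ± 5.62 FPKM, then Slfn8 at 14.5 ± 2.5 and Ly6a at 13.3 ± 8.10, whose ranges overlapped, and Ly6c2 at 2.54 ± 0.343. Ly6i (0.760 ± 0.266), Slfn1 (0.663 ± 0.391) and Slfn4 (0.332 ± 0.220) were the lowest, with overlapping ranges from each to the next. Slfn2 and Ly6e together thus held most of the summed level, 44.4% and 40.9% of it.

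After 3 h with hk S.E. the order changed. Slfn2 reached 1658 ± 62.4 FPKM in Ahr+/+ BMMs, and Slfn5 moved up to the second place with 436 ± 33.6 FPKM. Ly6e (309 ± 45.0) and Slfn8 (301 ± 18.2) came next and overlapped. At 20 h Slfn2 was still first with 1084 ± 124 FPKM and Ly6e second with 385 ± 29.6 FPKM. Slfn4 (93.1 ± 20.4), Slfn8 (90.0 ± 9.46), Slfn5 (82.4 ± 6.96) and Slfn1 (75.5 ± 14.9) then lay side by side, each overlapping the next. Slfn1 and Slfn4 had thus come level with Slfn5 and Slfn8, from the bottom of the order in unactivated cells. Ly6c2 was the lowest member at 20 h, at 4.01 ± 1.3 FPKM.

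**Figure D1:**
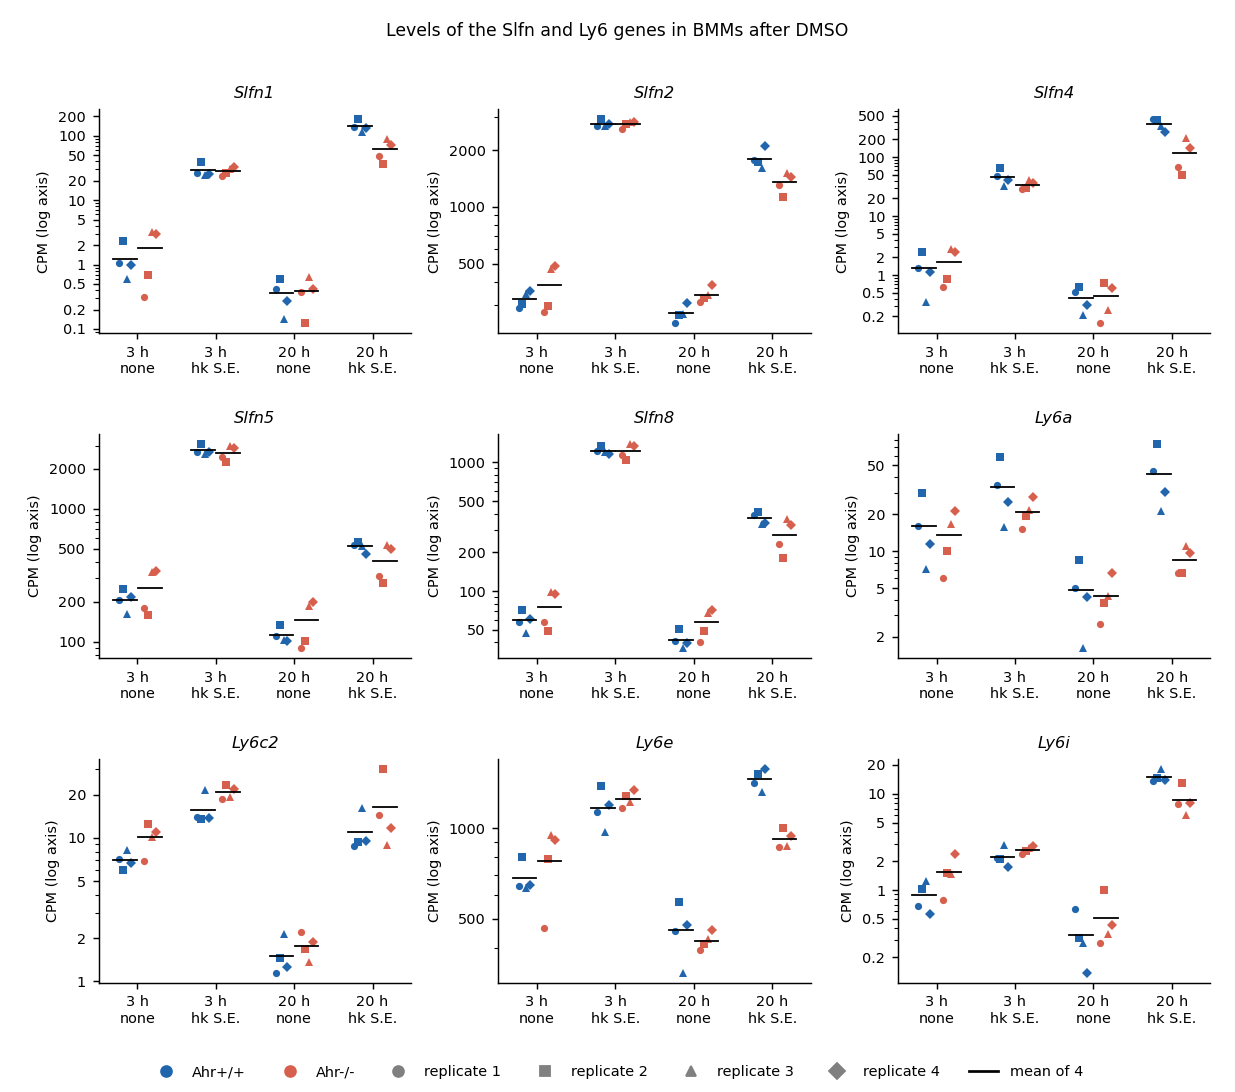
Level of each gene in BMMs after DMSO, in CPM on a log axis, without (none) and with hk S.E. at 3 h and 20 h. Each symbol is a library (its shape gives the replicate number, blue Ahr+/+, red Ahr-/-), and the line is the mean of 4. Slfn1, Slfn4 and Ly6i are highest with hk S.E. at 20 h, and Slfn5 and Slfn8 with hk S.E. at 3 h.

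Activation with hk S.E. raised most members at 3 h. All tests are two-sided quasi-likelihood tests of edgeR over all genes tested, with Benjamini-Hochberg adjusted p-values called below 0.01, and log2 values with ± are fitted log2 fold changes with their standard error. In Ahr+/+ BMMs 8 of the 9 members were called higher, where 24.2% of all genes tested were, and in Ahr-/- BMMs 7 of 9, where 25.5% were. The median log2 fold change of the members was 3.09 in Ahr+/+ and 2.84 in Ahr-/- BMMs, against -0.10 and -0.08 for all genes tested. At 20 h 9 of 9 members were higher in Ahr+/+ BMMs (29.9% of all genes) and 8 of 9 in Ahr-/- BMMs (28.3%), with medians of 3.14 and 2.26 against 0.00 and 0.02 for all genes. The member not called was Ly6a in Ahr+/+ BMMs at 3 h (log2 1.05 ± 0.46, adjusted p = 0.0409), Ly6a in Ahr-/- BMMs at 20 h (0.96 ± 0.49, adjusted p = 0.0830), and both Ly6a (0.63 ± 0.46, adjusted p = 0.231) and Ly6i (0.82 ± 0.28, adjusted p = 0.0100, just above the threshold) in Ahr-/- BMMs at 3 h.

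Markers of neutrophils were higher with activation at 3 h too. Their summed level over 8 genes was between 14.7 and 37.5 CPM without and 104 and 238 CPM with hk S.E. in Ahr+/+ BMMs, and between 18.4 and 21.6 and between 105 and 109.5 CPM in Ahr-/- BMMs. Of the 5 that passed the filter, 4 were called higher at 3 h in each genotype. At 20 h the sums were between 10.2 and 28.1 CPM without and 22.2 and 38.0 CPM with hk S.E. in Ahr+/+ BMMs, and between 14.4 and 57.1 and between 21.5 and 31.5 CPM in Ahr-/- BMMs, ranges that overlapped. Of the 8 listed, Ly6g, Mpo and Elane reached at most 0.482, 0.275 and 0.197 CPM in any library, while S100a9, S100a8 and Ngp reached 111, 73.0 and 56.4 CPM. The part of such cells in the activation results was not tested further.

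The 3 h calls of the Ly6 genes depended on how libraries were scaled. TMM factors lay between 1.24 and 1.34 in unactivated libraries, between 0.761 and 0.844 in activated libraries at 3 h and between 0.969 and 1.08 at 20 h. When libraries were scaled to total counts only, an alternative added after the data were seen, the median log2 fold change of all genes at 3 h was -0.74 in Ahr+/+ and -0.72 in Ahr-/- BMMs, and at 20 h it was -0.36 and -0.27. The 5 Schlafen members remained called at 3 h in both genotypes, and none of the 4 Ly6 members was. Ly6e then differed by a log2 of 0.10 and 0.01, and Ly6a by 0.36 and -0.04. At 20 h the members called in either genotype were called under this scaling as well.

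Slfn5 and Slfn8, of the longer Schlafen proteins that carry a helicase-like region, responded early. Slfn5 stood at 204, 247, 161 and 215 CPM in unactivated Ahr+/+ libraries and at 2696, 3070.2, 2588 and 2682 CPM after 3 h of hk S.E. in libraries 1 to 4. Its activated libraries at 20 h were at 535, 565, 524 and 461 CPM, against 110.4, 134, 103 and 101 CPM without hk S.E. Activated and unactivated libraries did not overlap at either time, and the level at 3 h was above that at 20 h in every library. The log2 fold change was 3.74 ± 0.24 at 3 h (adjusted p = 4.88e-20) and 2.22 ± 0.23 at 20 h (adjusted p = 1.28e-12), and the response shrank between the times by 1.52 on the log2 scale (adjusted p = 3.18e-05). Slfn8 did likewise, with 57.7, 71.9, 47.0 and 60.9 CPM rising to 1228, 1337, 1197 and 1165 CPM at 3 h and 391, 411, 333 and 338 CPM at 20 h, and its response was 4.37 ± 0.22 at 3 h and 3.14 ± 0.21 at 20 h, on the log2 scale. Slfn2 went the same way with a smaller fall. It was at 2682, 2907, 2692 and 2752 CPM at 3 h and 1782, 1728, 1611 and 2093 CPM at 20 h after hk S.E. Its log2 response was 3.09 ± 0.12 and 2.73 ± 0.12 in Ahr+/+ BMMs, a change that was not called. In Ahr-/- BMMs its response was called smaller at 20 h.

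Slfn1 and Slfn4, members without the helicase-like region, were below 1 CPM in unactivated Ahr+/+ BMMs at 20 h and above 100 CPM in activated ones. Slfn4, known as an interferon-induced gene of myeloid cells, held 0.523, 0.628, 0.213 and 0.307 CPM in unactivated Ahr+/+ libraries at 20 h, from 6 to 91 counts, and 437, 434, 334 and 272 CPM after hk S.E. At 3 h the activated libraries held 48.9, 64.9, 32.3 and 41.3 CPM, against 1.31, 2.46, 0.345 and 1.14 CPM. All activated libraries lay far above all unactivated ones. The log2 fold change was 5.03 ± 0.52 at 3 h and 9.93 ± 0.62 at 20 h (adjusted p = 1.59e-12 and 1.11e-20). Slfn1 rose from 1.07, 2.28, 0.592 and 0.996 CPM to 26.6, 39.4, 24.9 and 25.5 CPM at 3 h, and from 0.419, 0.597, 0.142 and 0.273 CPM to 139, 179, 114 and 131 CPM at 20 h. Its log2 fold change was 4.43 ± 0.38 at 3 h and 8.75 ± 0.45 at 20 h. Because the unactivated levels rest on few counts, the size of the 20 h changes of both genes is less certain than their direction. Part of the growth of the Slfn1 response lay in the unactivated cells, where Slfn1 fell by 2.05 on the log2 scale between 3 h and 20 h (adjusted p = 0.00387).

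Among the Ly6 genes the 20 h response was the larger one in Ahr+/+ BMMs. Ly6i held 0.682, 1.03, 1.23 and 0.569 CPM in unactivated Ahr+/+ libraries at 3 h and 2.18, 2.09, 2.91 and 1.75 CPM in activated ones. At 20 h it held 0.628, 0.314, 0.284 and 0.138 CPM without and 13.6, 14.5, 18.2 and 13.8 CPM with hk S.E. The groups did not overlap at either time, and the response was 1.32 ± 0.32 and 5.83 ± 0.32 on the log2 scale (adjusted p = 2.94e-04 and 3.69e-23). Ly6e, already abundant, rose from 642, 802, 632 and 649 CPM to 1135, 1383, 970.3 and 1195 CPM at 3 h, and from 455, 570.0, 331 and 475 CPM to 1418, 1515, 1319 and 1574 CPM at 20 h, a log2 of 0.78 ± 0.13 and 1.67 ± 0.14. Ly6c2 held 7.11, 5.95, 8.19 and 6.64 CPM without hk S.E. at 3 h and 14.0, 13.6, 21.5 and 13.8 CPM with it, and 1.15, 1.45, 2.13 and 1.26 CPM without and 8.85, 9.34, 16.2 and 9.58 CPM with it at 20 h. Its larger log2 response at 20 h, 2.92 ± 0.31 against 1.18 ± 0.28, came with a lower unactivated level, and the activated libraries of the 2 times overlapped. Ccr2, a marker of monocytes, in these groups was between 39.3 and 106 CPM without and 14.6 and 29.4 CPM with hk S.E. at 3 h, and between 38.2 and 67.7 CPM without and 3.00 and 9.71 CPM with it at 20 h. Its levels moved opposite to those of Ly6c2 on activation, and its part in the level of Ly6c2 was not tested.

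The change of the response between 3 h and 20 h was itself tested. In Ahr+/+ BMMs it grew for 6 members (Slfn1, Slfn4, Ly6a, Ly6c2, Ly6e and Ly6i) and shrank for 2 (Slfn5 and Slfn8), so 8 of 9 were called, where 47.8% of all genes were. In Ahr-/- BMMs it grew for Slfn1, Slfn4, Ly6c2 and Ly6i and shrank for Slfn2, Slfn5 and Slfn8, 7 of 9, where 44.7% of all genes were called. Comparing 20 h with 3 h directly, 6 members were lower at 20 h in unactivated Ahr+/+ BMMs (6.07% of all genes called in either direction) and 5 in unactivated Ahr-/- BMMs (6.98%). Ly6c2 fell there by 2.25 in Ahr+/+ and by 2.51 in Ahr-/- on the log2 scale. Unactivated Ahr+/+ libraries held 7.10 to 29.6 CPM of Ly6a at 3 h and 1.63 to 8.42 CPM at 20 h. Activated ones held 15.7 to 58.8 CPM at 3 h and 21.1 to 74.2 CPM at 20 h, ranges that overlapped. The growth of the Ly6a response thus came with a lower unactivated level. Ly6e had a lower unactivated level at 20 h and overlapping activated libraries too, at the levels given above. In activated Ahr+/+ BMMs 3 members were higher at 20 h (Slfn1, Slfn4 and Ly6i) and 3 lower (Slfn2, Slfn5 and Slfn8), where 59.5% of all genes were called. In activated Ahr-/- BMMs Ly6e was lower as well, so 3 rose and 4 fell, where 56.0% of all genes were called. In Ahr-/- BMMs all activated 3 h DMSO libraries and 3 of 4 unactivated ones carried library identifiers of a series absent at 20 h. The time and the identifier series thus cannot be told apart in activated Ahr-/- BMMs. So many genes were called in the tests of the response and of activated cells that the members' counts say little there, while the directions differed between Slfn5 and Slfn8 on one side and Slfn1, Slfn4 and Ly6i on the other.

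**Figure D2:**
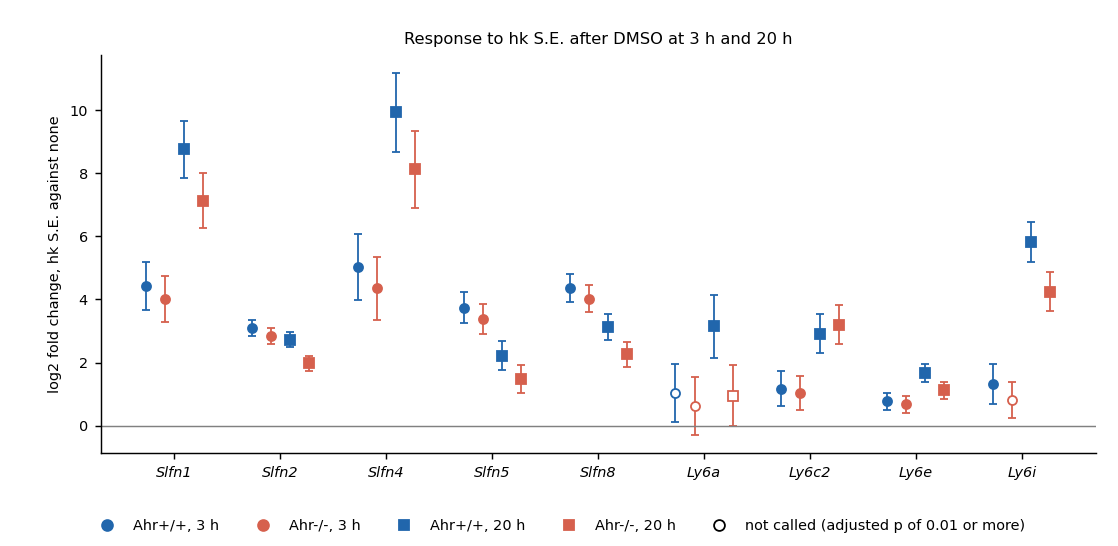
Fitted log2 fold change of hk S.E. against none after DMSO for each gene, with its 95% confidence interval. Circles are 3 h, squares 20 h, blue Ahr+/+, red Ahr-/-, and open symbols were not called. The 20 h values of Slfn1, Slfn4 and Ly6i lie above those at 3 h and those of Slfn5 and Slfn8 below, in both genotypes.

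Whether the members depended on AhR without an added ligand was read from the comparison of the genotypes after DMSO. In unactivated BMMs 0 of 9 members were called at 3 h (1.21% of all genes) and 0 of 9 at 20 h (0.702%), and in activated BMMs at 3 h 0 of 9 were called (2.83%). The unadjusted p was below 0.05 for 2, 2 and 0 members in these comparisons, and for 1452, 1814 and 2778 of the 14537 genes tested. In activated BMMs at 20 h 6 of 9 members were lower in Ahr-/- than in Ahr+/+ BMMs, where 7.39% of all genes were, and the median over the 9 was -0.66 against 0.01 for all genes tested. The 6 were Ly6a, Slfn4, Slfn1, Ly6i, Ly6e and Slfn2, and for each of them all 4 Ahr-/- libraries lay below all 4 Ahr+/+ libraries. This separation describes the libraries that the test used and is no further evidence. The share of all genes separated in this way is not given here.

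Of the members Ly6a had the largest difference between the genotypes. It held 44.9, 74.2, 21.1 and 30.6 CPM in activated Ahr+/+ libraries at 20 h and 6.58, 6.63, 11.1 and 9.70 CPM in Ahr-/- libraries. The highest knockout library was thus below the lowest Ahr+/+ library, although the latter varied widely. The log2 difference was -2.32 ± 0.47 (95% CI -3.27 to -1.37, adjusted p = 2.11e-04), a mean 5.00-fold lower level. Slfn4 held 67.1, 49.3, 208 and 142 CPM in Ahr-/- libraries, against the Ahr+/+ values from 272 to 437 CPM given above. Knockout libraries 1 and 2 were lowest, and the difference was -1.66 ± 0.40 on the log2 scale (adjusted p = 0.00153). Slfn1, at 48.2, 37.0, 89.7 and 70.9 CPM in the knockout, was lower by -1.20 ± 0.29 (adjusted p = 0.00174).

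The other members differed less. Ly6i held 7.79, 12.9, 5.96 and 8.11 CPM in Ahr-/- libraries (log2 -0.79 ± 0.23, adjusted p = 0.00859) and Ly6e 863, 1001, 873 and 942 CPM (-0.66 ± 0.13, adjusted p = 1.78e-04). Slfn2 held 1300.3, 1127, 1513 and 1446 CPM (-0.42 ± 0.11, adjusted p = 0.00539). Slfn5 at 313, 277, 531 and 499 CPM and Slfn8 at 230.4, 182, 362 and 326 CPM overlapped the Ahr+/+ libraries, and their log2 differences of -0.36 ± 0.22 and -0.42 ± 0.19 were not called (adjusted p = 0.252 and 0.114). Ly6c2 alone had a positive value, with 14.6, 30.2, 8.87 and 11.8 CPM in the knockout and a log2 difference of 0.57 ± 0.27 that was not called (adjusted p = 0.130).

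**Figure D3:**
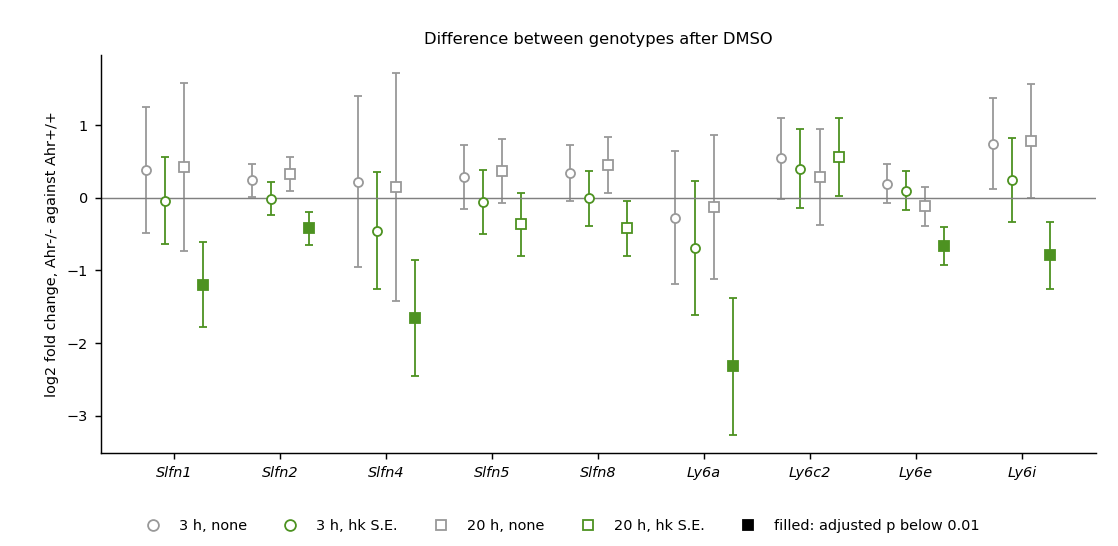
Fitted log2 fold change of Ahr-/- against Ahr+/+ BMMs after DMSO for each gene, with its 95% confidence interval. Grey is unactivated, green with hk S.E., circles 3 h, squares 20 h, and filled symbols have an adjusted p below 0.01. The 6 filled symbols are all activated BMMs at 20 h and all lie below 0.

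The 6 calls rested unequally on single libraries. When each of the 8 libraries was left out in turn, Ly6a and Ly6e were called in 8 of 8 fits, Slfn4 in 6, Slfn1 in 5, Slfn2 in 4 and Ly6i in 1, and the number called fell to 2 without knockout library 1 and to 3 without knockout library 2. In these groups all Ahr+/+ libraries carried identifiers of one series and all Ahr-/- libraries of another, so the identifier series and the genotype cannot be told apart there. In a fit over all 64 libraries with the series as a covariate, which other groups allow, only Ly6a remained called. A fit of only the groups compared, which draws no spread from the other groups, called 2 members.

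The response to activation was then compared between the genotypes. At 3 h 0 of 9 members were called (0.0138% of all genes, that is 2 genes). An unadjusted p below 0.05 was found for 0 of 9 members and for 867 of the 14537 genes tested. At 20 h 1 of 9 was called, where 4.41% of all genes were, namely Slfn2, whose response was smaller in Ahr-/- BMMs by 0.75 ± 0.16 as a log2 difference (-0.75, adjusted p = 0.00128). Slfn2 went from a mean of 272 to 1803 CPM in Ahr+/+ and from 342 to 1347 CPM in Ahr-/- BMMs. The fitted value was negative for 8 of 9 members, and 7 of 9 had an unadjusted p below 0.05, as had 3131 of the 14537 genes tested. Ly6a had the largest of these values (-2.19 ± 0.68, adjusted p = 0.0291), followed by Slfn4 (-1.81 ± 0.91, adjusted p = 0.234), Slfn1 (-1.62 ± 0.66, adjusted p = 0.120) and Ly6i (-1.58 ± 0.46, adjusted p = 0.0188). That Ly6a was called in Ahr+/+ and not in Ahr-/- BMMs at 20 h is therefore not shown to be a difference between the genotypes at this threshold in this fit. A fit with the replicate number as a block did call it (log2 -2.12, adjusted p = 2.24e-11). That call holds only if equal numbers share a mouse.

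Libraries of the knockout differed among themselves by replicate number. Ahr-/- libraries 3 and 4 were both above libraries 1 and 2 in 8 of 8 groups for Slfn1, Slfn2, Slfn5, Slfn8 and Ly6a, and in 7 of 8 for Slfn4. In the unactivated group at 3 h Slfn1 held 0.317 and 0.677 CPM in libraries 1 and 2 and 3.19 and 2.94 CPM in libraries 3 and 4. Over all genes too, the deviations from the group mean of libraries 1 and 2 correlated, with a median r of 0.283 over 56 pairs, as did those of 3 and 4 (0.309), while those of 1 and 3 (-0.281) and 2 and 4 (-0.351) were opposed. These correlations are across genes and are a description, since deviations from a mean of 4 are tied to each other. The summed macrophage markers in activated knockout libraries at 20 h moved the other way, with 26520 and 29996 CPM in libraries 1 and 2 and 18290 and 18871 CPM in libraries 3 and 4, beside 16521 to 20489 CPM in Ahr+/+ libraries. Their part in the members' levels was not tested. In Ahr+/+ BMMs Ly6a kept the order 2, 1, 4, 3 from highest to lowest in 8 of 8 groups.

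The genotype comparison in activated BMMs at 20 h was repeated with either pair of the knockout libraries, a step added after these pairs were seen. With libraries 3 and 4 only, the same 6 members were lower, where 11.1% of all genes were. Ly6a differed by -2.04, Slfn4 by -1.08, Ly6i by -1.08, Slfn1 by -0.81, Ly6e by -0.68 and Slfn2 by -0.28 on the log2 scale. With libraries 1 and 2 only, 7 members were lower, where 10.5% of all genes were, with Slfn5 and Slfn8 (-0.82 and -0.83) called and Ly6i (-0.54) not, and Ly6c2 was called higher (1.02, adjusted p = 0.00499). The size of the difference of Slfn4 thus went from -1.08 to -2.66 with the pair used, while that of Ly6e stayed between -0.68 and -0.64.

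**Figure D4:**
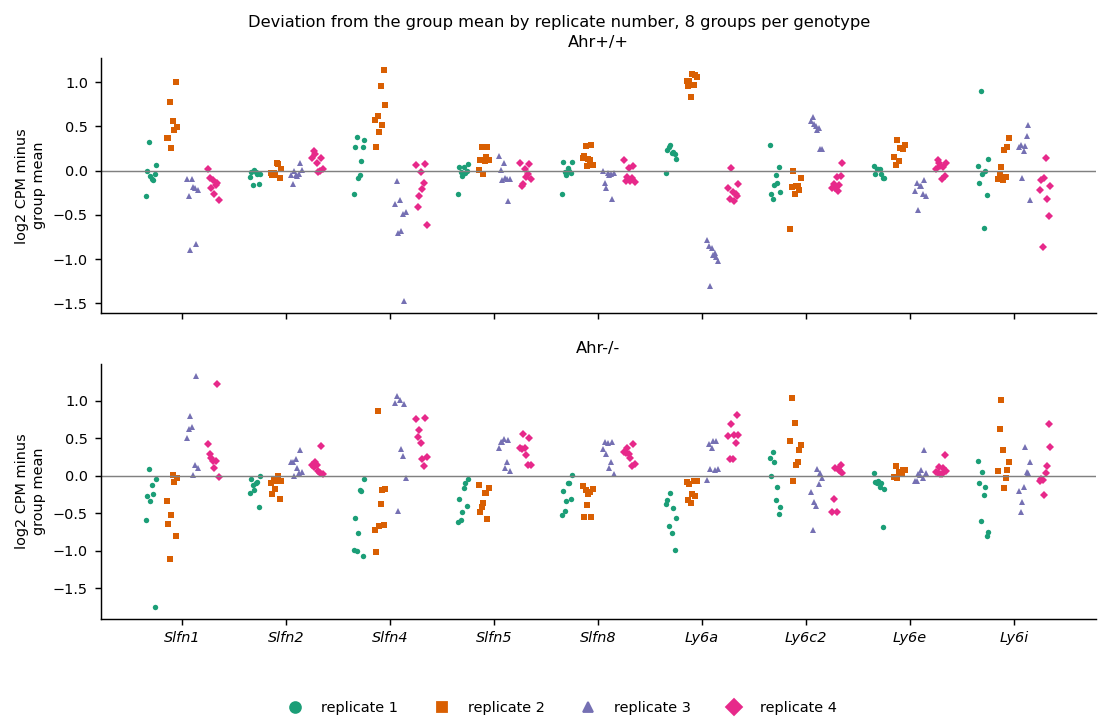
Log2 CPM of each library minus the mean of its group, by gene and replicate number, for the 8 groups of each genotype. In Ahr-/- BMMs (lower plot) replicates 3 and 4 lie above replicates 1 and 2 for Slfn1, Slfn2, Slfn5, Slfn8 and Ly6a in 8 of 8 groups, and in Ahr+/+ BMMs (upper plot) replicate 2 has the highest and replicate 3 the lowest Ly6a level in each group.

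No member was called as changed by a ligand in the fit without a replicate block, and with the block Ly6a was. With BaP against DMSO in activated Ahr+/+ BMMs 0 of 9 members were called at 3 h (0.0482% of all genes) and at 20 h (0.234%), and with I3C 0 of 9 at 3 h (0.131%) and at 20 h (0.509%). In Ahr-/- BMMs 0 of 9 were called with BaP at 3 h (0.0275%) and 20 h (0.0138%), and with I3C at 3 h (0.0206%) and 20 h (0.206%). The difference of the ligand effect between the genotypes was called for 0 members with BaP at 3 h (0.0138% of all genes) and at 20 h (0%), and with I3C at 3 h (0%) and 20 h (0%). BaP and I3C, which were given at different doses, were also set against each other in Ahr+/+ BMMs, with 0 members called at 3 h (0.110%) and at 20 h (0.282%). In the fit without the block, 1 value over the 8 ligand comparisons and the 9 members had an unadjusted p below 0.05. It was Ly6a with BaP in Ahr+/+ BMMs at 20 h, where 1510 of the 14537 genes tested had such a p. So few genes were called in these comparisons that the counts of 0 among 9 genes say little about the members. DESeq2 and limma on VST values called 0 members in each of them too, while a fit with the replicate number as a block called Ly6a in 3 of them, with BaP and with I3C in Ahr+/+ BMMs at 20 h and for BaP by genotype at 20 h. The paper, by its own DESeq2 analysis, lists Ly6a among AhR-dependent genes that were higher with BaP at 20 h.

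Ly6a was the member with the largest values with ligand. In Ahr+/+ BMMs at 20 h it held 44.9, 74.2, 21.1 and 30.6 CPM with DMSO, 73.1, 151, 43.2 and 65.0 CPM with BaP at 1 µM, and 69.3, 101, 30.8 and 47.9 CPM with I3C at 10 µM, in libraries 1 to 4. The groups overlapped, and library 2 was the highest and library 3 the lowest with each treatment. The log2 fold change was 0.96 ± 0.44 with BaP (95% CI 0.08 to 1.85, adjusted p = 0.425) and 0.55 ± 0.44 with I3C (95% CI -0.34 to 1.43, adjusted p = 1), neither past the threshold of edgeR's test. Set beside the DMSO library of the same number, the BaP libraries were 1.63, 2.04, 2.05 and 2.13 times as high and the I3C libraries 1.54, 1.37, 1.46 and 1.57 times. At 3 h these ratios were 1.24 to 1.44 with BaP and 1.06 to 1.22 with I3C. In Ahr-/- BMMs at 20 h they were 0.652 to 1.12 with BaP, with 2 of 4 above 1, and 1.00 to 1.12 with I3C. The ratios are a description chosen after the values were seen, because nothing in the labels says that equal numbers come from the same mouse, and the difference between the genotypes had an adjusted p of 0.984 with BaP at 20 h (log2 -1.09 ± 0.64).

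The other members stayed closer to their DMSO level. At 20 h in Ahr+/+ BMMs the fitted values with BaP were positive for 8 of 9 members and had a median log2 of 0.27. With I3C they were positive for 7 of 9 with a median of 0.14. Without the block, none of these members but Ly6a had an unadjusted p below 0.05. With the block, edgeR's unadjusted p with BaP was 0.0122 for Slfn8, 0.0133 for Slfn5, 0.0222 for Slfn4 and 0.0476 for Ly6i. With I3C it was 0.0310 for Slfn5. None of these values of members other than Ly6a was called. Slfn4 held 422, 755, 391 and 532 CPM with BaP and 373, 537, 315 and 392 CPM with I3C, ranges that overlapped those with DMSO. Ly6i held 19.8, 17.9, 23.0 and 16.4 CPM with BaP and 16.7, 16, 20.0 and 16.2 CPM with I3C. Set beside the DMSO library of the same number, Ly6i was 1.18 to 1.46 times as high with BaP. With I3C it was 1.10 to 1.23 times as high. With BaP, members other than Ly6a and Ly6i lay both above and below these DMSO libraries. In Ahr-/- BMMs the medians at 20 h were -0.05 with BaP and -0.04 with I3C. All comparisons with a ligand share the DMSO libraries, so their values are not independent of each other.

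**Figure D5:**
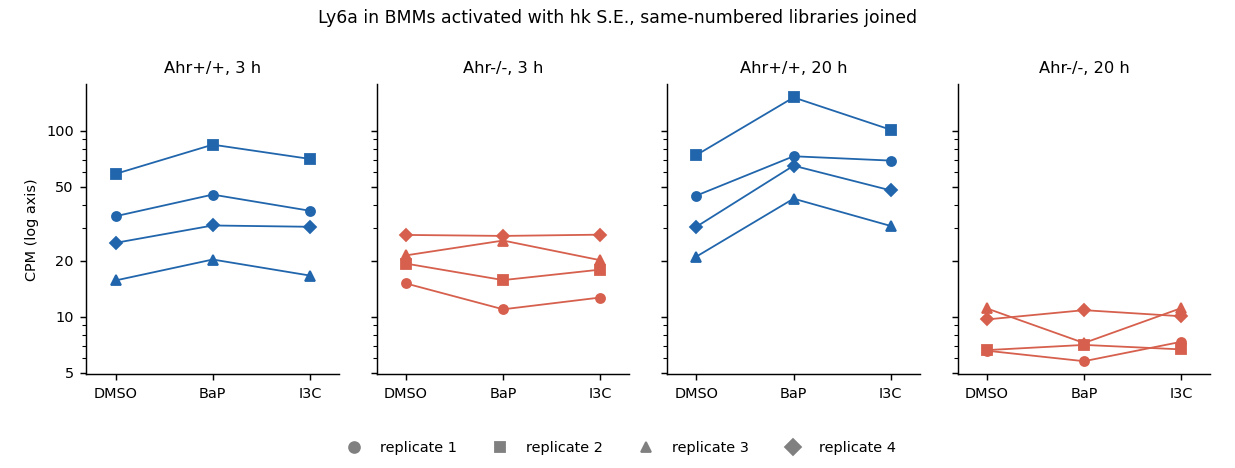
Ly6a level in activated BMMs after DMSO, BaP (1 µM) or I3C (10 µM), in CPM on a log axis, for each genotype and time. Symbols are libraries and lines join equal replicate numbers. All 4 lines of Ahr+/+ BMMs at 20 h rise from DMSO to BaP, by 1.63 to 2.13 times, and the lines start from DMSO levels between 21.1 and 74.2 CPM.

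The interferon pathway was followed through a list of genes by role. Of the ligands, Ifnb1 was the only 1 of 4 that passed the filter. Ifnb1, the type I interferon of macrophages, held 16.8 ± 4.19 CPM in Ahr+/+ and 11.2 ± 6.97 CPM in Ahr-/- BMMs after 3 h of hk S.E., and 0.898 ± 0.449 and 0.171 ± 0.131 CPM at 20 h, where the log2 difference was -2.51 ± 0.59 (adjusted p = 0.00134), from 48 or fewer counts a library. Of the 4 receptor genes 0 differed between the genotypes there. Ifnar1 had a log2 difference of -0.01 ± 0.07. Of 5 signalling genes 2 were lower in the knockout, where 7.39% of all genes were, among them Stat2 (-0.83 ± 0.15), while Irf9 (-0.17 ± 0.08, adjusted p = 0.142) was not called. Of 30 other interferon-stimulated genes 30 were higher with hk S.E. in both genotypes at both times, where 24.2% to 29.9% of all genes were, and 17 were lower in Ahr-/- than in Ahr+/+ activated BMMs at 20 h, against 7.39% of all genes, with a median log2 of -0.82 against 0.01 for all genes. Mx1 differed by -2.15 ± 0.36 and Isg15 by -1.13 ± 0.20, and the response to activation at 20 h was called smaller in the knockout for 7 of the 30, where 4.41% of all genes were called in either direction. The median over the 9 members between the genotypes in activated BMMs at 20 h was -0.66.

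Of 36 other genes listed for the Schlafen and Ly6 families 8 passed the filter, Slfn3 and Slfn9 among them. Ly6g2, Ly6m and Ly6g6g were not found by symbol among the counted genes, so they could not pass. Slfn9, next to Slfn8 in the cluster and with the same letters TTTCGTTTTC 45 bases before its RefSeq start, rose from 38.0 ± 8.5 to 576 ± 30.4 CPM in Ahr+/+ BMMs at 3 h and was at 41.8 ± 1.67 without and 39.9 ± 8.54 CPM with hk S.E. at 20 h. Its response thus shrank by 3.99 on the log2 scale (adjusted p = 4.04e-14). Slfn3, beside Slfn4 and with no match to the interferon response core in its promoter window, rose from 7.96 ± 1.82 to 75.7 ± 6.39 CPM at 3 h and from 5.42 ± 0.729 to 15.7 ± 2.33 CPM at 20 h. Of the 8, Slfn9 alone differed between the genotypes in activated BMMs at 20 h (log2 -1.18 ± 0.25, adjusted p = 4.27e-04). Ly6c1, the near copy of Ly6c2, had at most 4 counts in any of the libraries after DMSO and did not pass the filter.

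Finally, patterns were compared over the 16 group means of log2 CPM, which share libraries and are dominated by activation, so Pearson's r is a description. Among members, Slfn1 and Slfn4 were most alike (r = 0.993), followed by Slfn2 and Slfn8 (0.981) and by Slfn5 and Slfn8 (0.971), and Slfn5 and Ly6i were least alike (0.230). Over the 12 activated groups alone, r was 0.990 for Slfn1 and Slfn4 and 0.998 for Slfn5 and Slfn8, and it was -0.744 between Slfn1 and Slfn5. Slfn2 there had an r of 0.990 with Slfn8, 0.982 with Slfn5 and -0.625 with Slfn1. Of all genes tested, those most like each member were Srpr, Pwp1 and Fbxo38 for Slfn1 (r from 0.994 to 0.998), Cflar, Gbp3 and Irf9 for Slfn2, Pwp1, H2-T24 and H2-T23 for Slfn4, Tor1aip2, Ifi203 and Daam1 for Slfn5 and Casp4, Parp14 and Cxcl10 for Slfn8. They were Gm21399, Fcgr1 and Kdr for Ly6a, Dnmt3l, Ahctf1 and Sema3c for Ly6c2, Oas3, Clcn6 and Rlim for Ly6e and Mreg, Ric1 and Tgif1 for Ly6i. The likeness was weakest for Ly6a, whose 3 genes had r from 0.936 to 0.953.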

How the data were processed

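RNA-seq was measured in 64 libraries, 4 in each of 16 groups of genotype, time point and treatment. To make the deposited counts, the authors trimmed adapters, aligned read pairs to mm10 with HISAT2 2.1.0 and counted those that lay within the exons of a gene, on its strand, with HTSeq 0.9.1 on GENCODE M22, after demultiplexing with bcl2fastq 2.19.0.316. Tool versions follow the submitters' processing notes. Pairs that aligned to several places (12.4% to 15.8%) were not counted, which can lower genes with near copies. A table of log2 values, which the authors deposited too, holds their variance-stabilized values (VST) from DESeq2 and served only as an alternative. The last 5 entries of a count file are tallies of unassigned pairs and were dropped.

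The members and gene lists were chosen with earlier results of these data known. Genes named are the 9 members, 3 genes most like each and 15 fixed by name. Counts were analysed with edgeR 4.0.16 in R 4.3.3, with filterByExpr (min.count 10), TMM scaling and a quasi-likelihood fit of 16 group means over all 64 libraries, which left 48 residual degrees of freedom. By the methods each genotype had 4 mice, so libraries of different groups share mice, yet this fit takes all libraries as independent. Benjamini-Hochberg adjustment ran over the 14537 genes of each of 30 comparisons, with 0.01 as threshold. Log2 CPM used a prior count of 2. Symbols, positions and lengths came from GENCODE M21, a release before that of the authors, and 93 of 55487 IDs had no symbol there. No 2 libraries were identical. Alternatives were other scalings, no filter, DESeq2 1.42.0, limma 3.58.1 on the VST values, only the groups compared, a covariate for the identifier series of the libraries, a replicate block, a threshold of 0.05 and leaving out each library, and 2 were added after the data were seen, total-count scaling and pairs of knockout libraries. The fit was tested on simulated data. Proteins were not used here. A named pathway gene and a marker gene are not reported here and were left out of their lists.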

Additional observations from a re-analysis of the deposited data

Results flagged for a closer look

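The response to hk S.E. differed between groups for several members, by the test of the difference itself. Between the genotypes at 20 h this held for Slfn2 (-0.75 as Ahr-/- minus Ahr+/+). Between 20 h and 3 h in Ahr+/+ BMMs the difference was 4.32 for Slfn1, 4.91 for Slfn4, -1.52 for Slfn5, -1.24 for Slfn8, 2.1 for Ly6a, 1.74 for Ly6c2, 0.89 for Ly6e and 4.51 for Ly6i on the log2 scale. In Ahr-/- BMMs it was 3.12 for Slfn1, -0.86 for Slfn2, 3.77 for Slfn4, -1.91 for Slfn5, -1.77 for Slfn8, 2.16 for Ly6c2 and 3.43 for Ly6i. The larger 20 h responses of Ly6a, Ly6c2 and Ly6e in Ahr+/+ BMMs came with lower unactivated levels. Their activated libraries at 3 h and 20 h overlapped.

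Single libraries stood apart from the other 3 of their group, by Dixon's test at 95%, in 8 of 144 sets of a gene in a group, and chance gives about 1 in 20. Slfn1 was high at 29.0 CPM in replicate 3 of Ahr-/- BMMs with I3C at 3 h, at 184.8 CPM in replicate 2 of Ahr+/+ BMMs with I3C at 20 h and at 39.4 CPM in replicate 2 of activated Ahr+/+ BMMs after DMSO at 3 h. Ly6c2 was at 16.2 and 21.5 CPM in replicate 3 of activated Ahr+/+ BMMs after DMSO at 20 h and 3 h, and at 15.3 CPM in replicate 1 of Ahr-/- BMMs with BaP at 3 h. Ly6e was at 802 CPM in replicate 2 of unactivated Ahr+/+ BMMs at 3 h, and Ly6i at 1.61 CPM in replicate 1 of Ahr+/+ BMMs with BaP at 3 h.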

How the results depend on the processing

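Of 5472 values of single members under an alternative, 5294 kept their side of the threshold, 106 lost and 72 gained a call, and 0 reversed with a call. Among the 5294 the sign changed in 298, none with a call in either fit. Which members were called in a comparison varied more. The counts that follow are given without the share of all genes called under each alternative. With total counts as the scale, 5 were called for activation in Ahr+/+ BMMs at 3 h. For the genotypes in activated BMMs at 20 h, 1 was called with the identifier series as a covariate, 2 in a fit of only the groups compared and 2 to 5 when leaving out a library. With knockout libraries 3 and 4 only, 3 were called between the genotypes in unactivated BMMs at 3 h and 3 at 20 h.

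For the response by genotype at 20 h (1 called), 0 were called in a fit of only the groups compared, 2 with DESeq2, 2 with limma on VST values, 3 with knockout libraries 3 and 4 only, 2 with 1 and 2 only, 4 at the threshold of 0.05, and 1 to 2 without a library. For 20 h against 3 h in unactivated Ahr+/+ BMMs (6 called), it was 2 with only the groups compared, 3 with VST values and 2 to 6 without a library. In unactivated Ahr-/- BMMs (5 called) it was 2 with the identifier series, 2 with knockout libraries 1 and 2 only, 1 with only the groups compared and 3 to 6 without a library. In activated Ahr-/- BMMs (7 called) it was 4 with the identifier series and 4 with knockout libraries 1 and 2 only. The time and the identifier series cannot be told apart between these activated groups. The cause was not tested.

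A replicate block within genotype was fitted as an alternative. No label says that a number marks a mouse. Within a time point, deviations of libraries of equal number correlated above 0.1 in 45 of 48 pairs in Ahr-/- and 32 of 48 in Ahr+/+ BMMs (medians 0.407 and 0.146). For different numbers it was 49 of 144 and 2 of 144, so equal numbers correlated more often in both genotypes. Without a label the numbers were still not taken as pairs, and the fit without the block is the one reported. If equal numbers do share a mouse, that fit ignores the pairing. The block changed the Ly6a result. It called Ly6a, as 1 of 9 members each, with BaP (log2 0.97, adjusted p = 7.20e-08) and I3C (0.57, adjusted p = 0.00144) in Ahr+/+ BMMs at 20 h and for BaP by genotype at 20 h (-1.10, adjusted p = 2.79e-04). It called 6 members for the response by genotype at 20 h, Ly6a among them (-2.12, adjusted p = 2.24e-11), and 8 for 20 h against 3 h in unactivated Ahr-/- BMMs. The share of all genes that the block called is not given here. These 2 counts thus do not show that the members stood out from other genes. These calls hold only if equal numbers share a mouse, and the ratios of Ly6a between equal numbers had been seen before this fit was run. Members at a few counts, Slfn1, Slfn4 and Ly6i in unactivated BMMs, have the least certain changes. Levels ranked by CPM in place of FPKM moved 71 ranks, and 11 of 54 likeness values moved.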
